A study of Mus musculus with 27 samples.

Results

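Genes of the Notch pathway, 10 in all, were followed through the differentiation of mouse embryonic stem cells (ESCs) to blood, with and without inhibition of the transcription factor AP-1. They were the receptors Notch1, Notch3 and Notch4, the ligands Dll1, Dll4, Jag1 and Jag2, and the targets Hes1, Hey1 and Hey2. They were chosen by name, their probes were found through the RefSeq accession that the array design gives each probe, and all 10 were among the 37208 genes measured, of which 20145 had a symbol. Notch signals pass between cells that touch: a Delta-like or Jagged ligand binds a Notch receptor on the neighbouring cell, proteases release the intracellular part of the receptor, and this part joins the DNA-binding protein RBPJ to switch on targets that include the Hes and Hey repressors. In the embryo the pathway is known for its part in arterial endothelium, in vascular smooth muscle and in the emergence of blood stem cells from hemogenic endothelium.

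All cells came from A2lox ESCs with a Flag-tagged dominant-negative FOS (dnFOS) that doxycycline (DOX) switches on from the Hprt locus, so that untreated cells held the silent cassette as well. dnFOS pairs with JUN proteins and keeps them off DNA. FLK1+ hemangioblast (HB) cells were purified from embryoid bodies of 3.75 days and taken at once (FLK1), after 5 h or 1 day (d1) as complete blast cultures (BC), or after 2 days of BC sorted as smooth muscle (SM), early hemogenic endothelium (HE1, KIT+ TIE2+ CD41-), late hemogenic endothelium (HE2, KIT+ TIE2+ CD41+) and hematopoietic progenitors (HP, KIT+ TIE2- CD41+). The DOX groups had 1 µg/ml DOX for 5 h, 1 day or 2 days, and FLK1 cells had no DOX group. How many picked clones were used is not given in the sources used here. DOX-treated cells without the cassette were not analysed here, so that an effect of DOX itself cannot be told apart from that of dnFOS, and no probe was assigned to the transgene to check its induction.

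There were 27 one-colour arrays on 5 slides, with 3 arrays for untreated SM and 2 for each of the other 12 groups. A level is the log2 signal of a gene's probe relative to the 75th percentile of its array, and levels are compared only within a gene. That percentile lay between 73.2 for HE2 replicate 1 and 635.5 for 5h BC replicate 2, and 46.9 to 89.6% of probes were well above background. The untreated HE1 arrays were dim, at 124.5 and 128.5, against 466.0 and 621.3 for d1 BC and 288.8 and 396.4 for HP. A gene was called where the limma fit gave a Benjamini-Hochberg adjusted p under 0.05 over all genes tested and a change of at least 2-fold. The labels do not say that replicates came from separate differentiations, so that the tests measure the spread between these arrays. HE1 and HP carried transcripts that mark them. Kit had a mean level of 3.65 in HE1 against -2.30 in d1 BC, and Cdh5 rose by 7.71 ± 1.53 (SE) on the log2 scale from FLK1 to HE1. Runx1 rose by 4.61 ± 0.68 from HE1 to HP. Smooth muscle markers (6 genes, summed linear signal relative to the 75th percentile) were 966 to 2028 in SM, overlapping 1176 to 1776 in d1 BC, and 257 to 578 in HE1. Tek, the gene of TIE2, was still well above background in HP, the TIE2- population, at a mean level of -0.42 against 2.48 in HE1. Here and throughout, fewer cells of a type and less RNA per cell cannot be told apart.

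Promoters of 8 of the 10 genes were in the RefSeq table (build GRCm38.p6), with 2 start sites for Dll1, and were searched on both strands from 250 bases before to 50 bases after the start, because the series asks about AP-1 and its partner TEAD4. The motifs were TGANTCA for AP-1, GGAATG for TEAD and TGGGAA for RBPJ, and they were present in 7.81%, 14.7% and 25.6% of all 32851 promoter windows. The windows of the 3 genes that fell from HE1 to HP (described below by role) are shown up to base 10 of the transcript, 5′ to 3′ on the strand of the gene, with matches on either strand in capitals.
Notch4: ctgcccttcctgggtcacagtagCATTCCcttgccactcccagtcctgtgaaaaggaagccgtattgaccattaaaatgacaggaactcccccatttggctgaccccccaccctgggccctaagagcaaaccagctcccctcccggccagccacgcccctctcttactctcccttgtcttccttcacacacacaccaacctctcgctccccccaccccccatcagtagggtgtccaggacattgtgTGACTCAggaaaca
Hey2: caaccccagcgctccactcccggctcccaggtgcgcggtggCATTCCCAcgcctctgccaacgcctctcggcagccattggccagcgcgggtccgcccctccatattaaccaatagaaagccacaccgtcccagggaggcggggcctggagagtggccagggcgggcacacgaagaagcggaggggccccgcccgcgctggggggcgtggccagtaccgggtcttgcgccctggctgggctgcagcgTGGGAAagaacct
Dll1, upstream start: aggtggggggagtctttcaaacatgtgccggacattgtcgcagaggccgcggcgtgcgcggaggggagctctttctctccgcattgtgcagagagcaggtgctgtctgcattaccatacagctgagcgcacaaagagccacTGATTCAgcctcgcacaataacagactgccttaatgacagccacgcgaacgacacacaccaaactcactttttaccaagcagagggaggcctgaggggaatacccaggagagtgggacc
Dll1, downstream start: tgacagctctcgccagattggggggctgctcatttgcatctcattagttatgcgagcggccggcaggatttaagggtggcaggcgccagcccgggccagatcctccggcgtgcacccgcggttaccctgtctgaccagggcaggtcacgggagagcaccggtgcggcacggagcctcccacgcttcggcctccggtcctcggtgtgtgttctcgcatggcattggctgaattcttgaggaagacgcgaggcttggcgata
The Notch4 window (chr17:34564045-34564304, plus strand) held an AP-1 match, TGACTCA, at bases -4 to 3 (base 1 is the first of the transcript, and there is no base 0) and a TEAD match, which reads CATTCC on this strand, at bases -227 to -222. Both motifs together were found in 1.26% of all windows. The Hey2 window (chr10:30842774-30843033, minus strand) held a TEAD match at bases -209 to -204, overlapped by an RBPJ match at bases -207 to -202, and a further RBPJ match at bases -3 to 3. The upstream Dll1 window (chr17:15376923-15377182, minus strand) held an AP-1 match, TGATTCA, at bases -109 to -103, and the downstream window (chr17:15375814-15376073, minus strand) held none of the 3 motifs. Notch1 had 2 TEAD matches, and these letters were not in the windows of Notch3, Dll4, Jag1 and Jag2. These are matches of letters only. The paper found most FOS, JUN and TEAD4 binding at distal elements, within introns or between genes, and these were not searched.

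**Figure D1:**
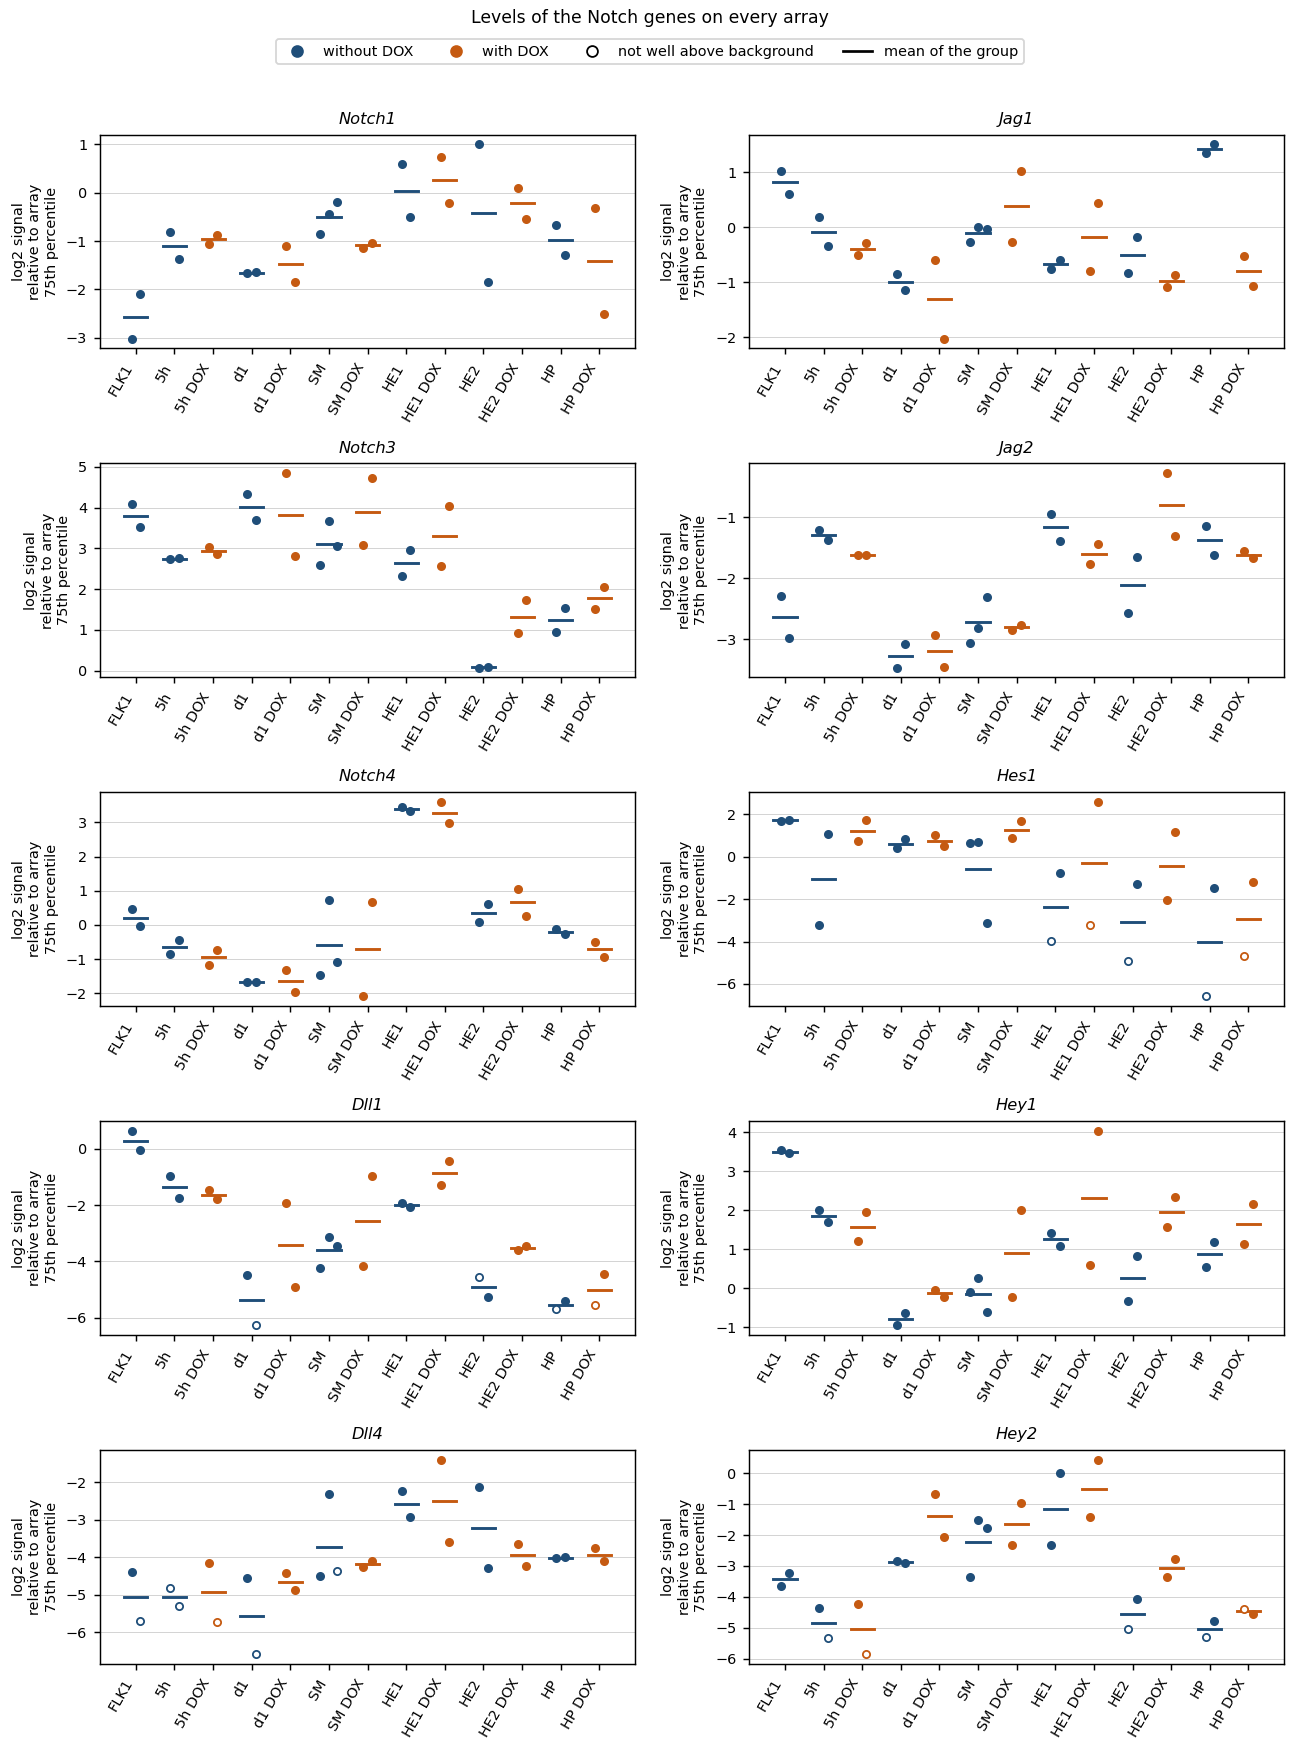
Level of each gene (log2 signal relative to the array's 75th percentile, y axis) on every array of the 13 groups (x axis), blue without and orange with DOX; open circles were not well above background and bars are group means. Among untreated groups Notch4 stood highest in HE1, at 3.46 and 3.34 (3.60 and 2.98 with DOX), and Jag1 in HP, at 1.34 and 1.50, while Hes1 arrays of one group lay far apart in the sorted groups with an array on slide 1.

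The first question was how the pathway changed as untreated HB cells became hemogenic endothelium and then blood. The receptor gene Notch4 rose into HE1 and fell after it: from d1 BC to HE1 Notch4 and Jag2 were called higher, and from HE1 to HP Notch4, Dll1 and Hey2 were called lower while Jag1 was called higher. Over the 9 untreated comparisons 13 of the 82 tests of these genes gave a call, from 6 genes. Of all genes tested in at least 1 of these comparisons 14.6% had a call. The comparisons share arrays (HE1 enters 5 of the 9), and their counts are not independent of each other. A gene was tested only where at least 1 of the groups compared had its probe well above background on every array.

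Counts by comparison stood beside those over all genes as follows. From 5h to d1 BC 2 of 9 genes tested were called lower, against 0.883% of all genes tested, and from d1 BC to HE1 2 of 10 were called higher, against 1.83%. From FLK1 to HE1 2 of 10 were called higher, against 6.84% of all genes, and from SM to HE1 1 of 10 was, against 0.226%. HE1 shared no slide with d1 BC or FLK1. With slide as a fixed block the higher calls from d1 BC and FLK1 to HE1 were lost, and Dll1 and Notch3 were called lower from FLK1. From HE1 to HE2 2 of 9 were called lower, against 1.8% of all genes. From HE1 to HP 3 of 9 were called lower, against 2.53%, and 1 higher, against 1.69%. None was called from FLK1 to 5h BC, where 2.84% of all genes were, from d1 BC to SM (0.243%) or from HE2 to HP (0.00394%). At an unadjusted limma p under 0.05 these 3 comparisons held 1 of 9, 0 of 9 and 1 of 7 of the genes tested, against 15%, 5.86% and 6.05% of all genes. The arrays of all 10 genes did not overlap between d1 BC and HE1 (8 above in HE1 and 2 below), against 59.8% of all genes tested, nor did those of 7 of 9 between HE1 and HP (1 above in HP and 6 below), against 50.3%. The median difference of the genes tested was 1.88 on the log2 scale from d1 BC to HE1, against 0.05 over all genes, and -1.39 from HE1 to HP, against 0.03. From FLK1 to HE1 it was 0.15, against 0.08, with 5 genes higher and 5 lower. These counts and medians cover only genes that passed the filter, which a gene can pass through the group where it is high. Dll1 from 5h to d1 BC and from HE1 to HP, and Hey2 from HE1 to HE2 and HP, passed in this way, and these 4 calls could not be made where the probe had to be well above background in both groups.

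Notch4, a receptor found mainly in endothelium, had levels of 0.45 and -0.05 in FLK1, -0.86 and -0.43 in 5h BC and -1.69 and -1.69 in d1 BC. It then reached 3.46 and 3.34 in HE1, with 0.07 and 0.61 in HE2 and -0.14 and -0.28 in HP. The HE1 arrays stood above those of every other untreated population without overlap. In SM the levels were -1.46, 0.74 and -1.09, so that replicate 2 was set apart from the other two.
The difference from d1 BC to HE1 was 5.09 ± 0.74 on the log2 scale, or 34.0-fold (adjusted p = 0.00121, limma), and that from SM to HE1 was 4.0 ± 0.68 (adjusted p = 0.0201). From FLK1 to HE1 Notch4 was higher by 3.20 ± 0.74 (adjusted p = 0.00907). It fell by 3.06 on the log2 scale from HE1 to HE2 (SE 0.74, adjusted p = 0.0330) and fell by 3.61 from HE1 to HP (SE 0.74, adjusted p = 0.00709). On the slides that held both groups the HE1 to HP difference was -3.60 on slide 1 and -3.61 on slide 3, and that from SM to HE1 was 4.55 and 2.60. HE1 shared no slide with d1 BC or FLK1. With slide as a fixed block the HE1 rise was 3.23 from d1 BC (adjusted p = 0.107) and 1.31 from FLK1 (adjusted p = 0.317), neither of them a call, while the differences between HE1 and SM, HE2 and HP were called under that fit too. In fits of the compared groups only, the calls from d1 BC and SM to HE1 and from HE1 to HE2 were lost (adjusted p = 0.0556, 0.667 and 0.437), the last also with no filter on dim probes.
The SM replicate with the high Notch4 level also had the highest summed endothelial markers (8 genes, linear signal relative to the 75th percentile) of the SM arrays, 73.8 against 15.7 and 13.2 in the other two. In HE1 the sums were 101 and 184. With DOX, SM replicate 2 again stood apart, with Notch4 at 0.66 against -2.10 and endothelial sums of 77.2 against 10.8. The part of endothelial RNA in these SM levels was not tested. Without single arrays the SM to HE1 call was lost on leaving out HE1 replicate 1 (adjusted p = 0.0636) or 2 (0.206) or SM replicate 1 (0.129) or 3 (0.109), and that from HE1 to HE2 on leaving out any one of the 4 arrays compared (adjusted p = 0.0809 to 0.261). The HE1 to HP call was lost without HE1 replicate 1 (0.0555) or HP replicate 1 (0.0666) or 2 (0.0561), and the FLK1 to HE1 call without FLK1 replicate 2 (0.0785) or HE1 replicate 1 (0.0684).

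Notch1, the receptor known to be needed for definitive blood, was at its lowest in FLK1 at -3.02 and -2.10 and at its highest untreated mean in HE1, with 0.59 and -0.51. It was higher in HE1 than in FLK1 by 2.60 ± 0.79 (adjusted p = 0.0382), and the arrays did not overlap. The levels in HE2 were 1.00 and -1.85, a spread larger than any difference between HE1, HE2 and HP. Notch1 had 2 probes, and the second was well above background on 13 of the 27 arrays only. With the mean of both probes the FLK1 to HE1 difference was 1.43 (adjusted p = 0.294), and on leaving out any one of the 4 arrays compared the adjusted p was 0.0619 to 0.243. The call stayed under 2 of the 11 alternatives other than leaving out arrays.

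Notch3, the receptor of vascular smooth muscle, had levels of 4.08 and 3.53 in FLK1, 4.34 and 3.69 in d1 BC and 2.59, 3.68 and 3.07 in SM. It stood at 2.31 and 2.95 in HE1, 0.07 and 0.09 in HE2 and 0.94 and 1.54 in HP. The HE2 arrays were below those of all other groups, with or without DOX. The HE1 to HE2 difference of -2.55 ± 0.69 just missed the threshold (adjusted p = 0.0580), with -2.24 within slide 1 and -2.86 within slide 3, and was called with slide as a fixed block (adjusted p = 0.00396). Summed smooth muscle markers (6 genes) were 257 to 578 in HE1 and 52.6 to 55.8 in HE2. A list of 6 matrix genes drawn up for fibroblast feeders (Col1a1, Col1a2, Col3a1, Dcn, Lum and Postn) summed to 46.0 to 88.0 and 3.82 to 5.18. These genes do not mark feeders alone: their sum was 171 to 209 in SM, and the paper counts Col1a1 among genes induced in d1 BC, SM and HE1. The part of either list in the Notch3 difference and in the HE1 differences of the genes below was not tested.

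**Figure D2:**
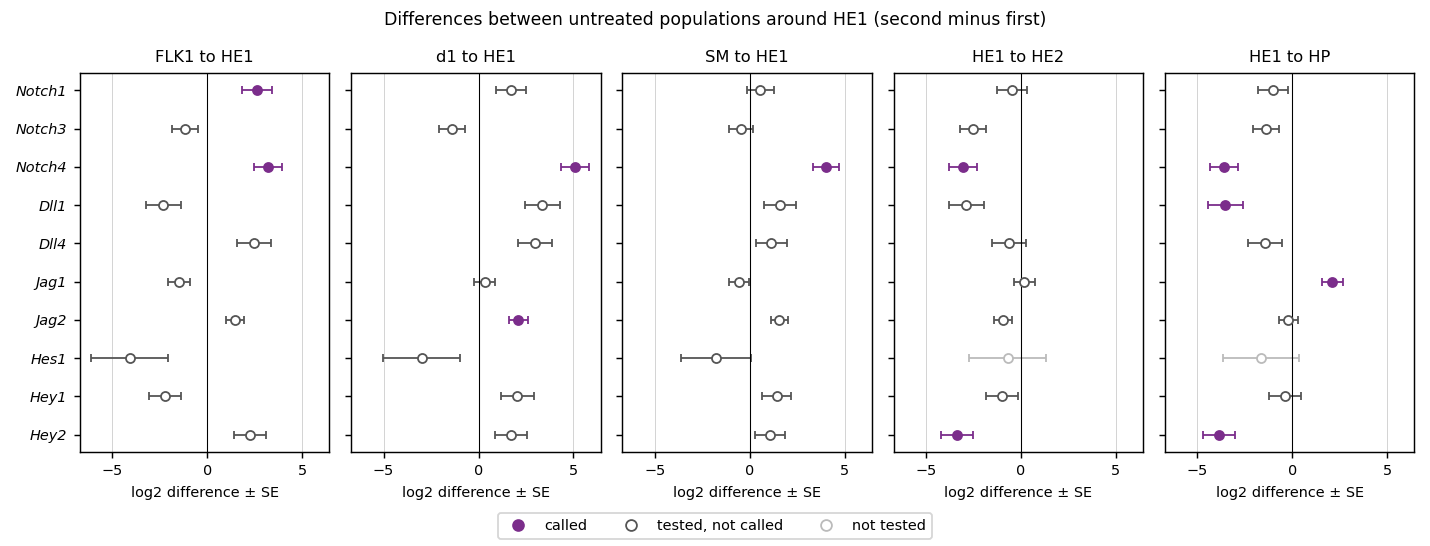
Log2 difference (x axis, ± SE) of each gene (y axis) in the 5 untreated comparisons that include HE1, second population minus first; filled symbols were called and grey ones not tested. Notch4 is to the right of 0 in the 3 comparisons into HE1 and to the left in both comparisons out of it.

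Among the ligands, Dll1 had the widest range of group means. Its levels were 0.64 and -0.06 in FLK1, -0.96 and -1.74 in 5h BC and -4.48 and -6.27 in d1 BC, where replicate 2 was not well above background. They were -1.94 and -2.09 in HE1, -4.55 and -5.25 in HE2 and -5.68 and -5.41 in HP, with replicate 1 not well above background in both of the last groups. The HE1 arrays lay below those of FLK1 and above those of d1 BC, HE2 and HP, without overlap. Summed mesoderm markers (5 genes) were 106 to 139 in FLK1, 34.0 to 42.5 in 5h BC, 5.71 to 8.38 in d1 BC and 0.88 to 0.94 in HE1. Their part in the Dll1 differences was not tested. Dll1 fell by 4.02 on the log2 scale from 5h to d1 BC (SE 0.93, adjusted p = 0.0365) and fell by 3.53 from HE1 to HP (SE 0.93, adjusted p = 0.0353), and the difference of 3.36 ± 0.93 from d1 BC to HE1 was not called (adjusted p = 0.0568). The differences from FLK1 to HE1, -2.30 (adjusted p = 0.114), and from HE1 to HE2, -2.89 (adjusted p = 0.144), were not called either. Both were called with slide as a fixed block, at -4.13 (adjusted p = 0.0136) and -2.89 (adjusted p = 0.0161), and with slide as a random block, at -3.40 (adjusted p = 0.00924) and -2.89 (adjusted p = 0.0150). The first was called under 7 of the 11 alternatives other than leaving out arrays. After normexp background correction with quantile normalization the HE1 to HP difference was -0.84 (adjusted p = 0.216), and the 5h to d1 difference was -1.44 and called. Of the 10 alternatives other than leaving out arrays that tested them, the HE1 to HP call stayed under 6 and the 5h to d1 call under 7. The first was also lost under quantile normalization, median scaling and on the authors' processed values, and the second with no filter on dim probes and in fits of the compared groups only. On leaving out any one of the 4 arrays compared the HE1 to HP call was lost (adjusted p = 0.128 to 0.236), and the 5h to d1 call was lost without 5h replicate 1 (0.386) or 2 (0.0695) or d1 replicate 2 (0.406).

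Jag2 had levels of -1.21 and -1.36 in 5h BC, -3.46 and -3.07 in d1 BC and -0.94 and -1.38 in HE1. The d1 arrays lay below those of 5h BC and HE1 without overlap. The gene fell by 1.98 on the log2 scale from 5h to d1 BC (SE 0.49, adjusted p = 0.0487) and rose by 2.11 ± 0.49 from d1 BC to HE1 (adjusted p = 0.0223). With slide as a fixed block these differences were -1.93 (adjusted p = 0.182) and 1.76 (adjusted p = 0.229), and after normexp background correction -1.05 (adjusted p = 0.0581) and 0.84 (adjusted p = 0.0957). They stayed called under 3 and 5 of the 11 alternatives other than leaving out arrays. On leaving out each of the 27 arrays in turn the first stayed called 6 times and the second 23 times, the losses being those of either d1 or HE1 array (adjusted p = 0.0923 to 0.168).

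Jag1, a ligand of endothelium and of the stroma around blood stem cells, was the exception in HP. Its levels were 1.02 and 0.61 in FLK1, -0.76 and -0.60 in HE1, -0.84 and -0.19 in HE2 and 1.34 and 1.50 in HP. The HP arrays were above those of all 12 other groups without overlap. The rise of 2.10 ± 0.56 from HE1 to HP was called (adjusted p = 0.0372) and was 2.10 within slide 1 and 2.10 within slide 3. The difference from FLK1 to HE1 was not called, but was under 5 of the 11 alternatives other than leaving out arrays, among them slide as a random block (-1.87, adjusted p = 0.0216). From HE2 to HP the difference was 1.94 ± 0.56 (adjusted p = 0.388), 2.19 on slide 1 and 1.69 on slide 3, and it was called after normexp background correction and on the authors' processed values only, of the 11 alternatives other than leaving out arrays. The HE1 to HP call stayed under 9 of these 11 and on leaving out 19 of the 27 arrays in turn, and on leaving out any one of the 4 arrays compared the adjusted p was 0.136 to 0.21.

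Dll4, the ligand of arterial and tip endothelium, was dim. It was not well above background on either 5h BC array, and it reached -2.24 and -2.92 in HE1 against -4.39 and -5.70 in FLK1 and -4.55 and -6.58 in d1 BC, with replicate 2 not well above background in either of these groups. The HE1 arrays were above the FLK1 and d1 arrays without overlap, but the differences of 2.47 ± 0.90 and 2.99 ± 0.90 were not called (adjusted p = 0.0812 and 0.0816), and their size rests in part on those dim arrays. SM replicate 2, the array with high endothelial markers, had -2.30 against -4.51 and -4.35 in the other SM arrays, the last of them not well above background.

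Of the target genes, Hey2, a repressor of arterial and cardiac cells, had its highest untreated mean in HE1 and fell after it. Its levels were -3.63 and -3.22 in FLK1, -2.33 and -0.00 in HE1, -5.05 and -4.06 in HE2 and -5.30 and -4.77 in HP, with replicate 1 not well above background in HE2 and HP. The HE1 arrays were above those of HE2 and HP without overlap, although they differed from each other by more than most pairs. Hey2 fell by 3.39 on the log2 scale from HE1 to HE2 (SE 0.85, adjusted p = 0.0402) and fell by 3.87 from HE1 to HP (SE 0.85, adjusted p = 0.0109). Within slides the HE1 to HP difference was -2.97 on slide 1 and -4.77 on slide 3. After normexp background correction these differences were -1.63 (adjusted p = 0.0809) and -1.54 (adjusted p = 0.0839). They stayed called under 6 and 7 of the 10 alternatives other than leaving out arrays that tested them. The first was also lost after median scaling and with no filter on dim probes, the second on the authors' processed values, and both in fits of the compared groups only. The HE1 to HE2 call stayed on leaving out 11 of the 27 arrays in turn (adjusted p at most 0.511), and that to HP was lost without HE1 replicate 2 (0.189) or HP replicate 1 (0.135).

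Hey1 was highest in FLK1, at 3.54 and 3.46, and lowest in d1 BC, at -0.95 and -0.64. It stood at 1.43 and 1.09 in HE1 and at 0.55 and 1.19 in HP. The FLK1 arrays were above those of every other untreated group, but none of its 9 differences was called. The largest, from 5h to d1 BC, was -2.65 ± 0.85 (adjusted p = 0.171). The difference from FLK1 to HE1 was called with slide as a random block (-2.51, adjusted p = 0.0359), and also after median scaling and in a fit of the compared groups only.

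Hes1, the target most directly tied to Notch in many cells, was read differently by slide. On the 7 arrays of slide 1 its levels lay between -6.59 and -2.06, on the 8 arrays of slide 3 between -1.49 and 2.58, and on the 8 arrays of slide 4 between 0.49 and 1.75. The 7 groups that had an array on both slide 1 and slide 3 were all higher on slide 3, by 3.21 to 5.79 and by 4.04 on average on the log2 scale. As large a mean difference between those slides was found in 0.0178% of the 22410 genes well above background on all arrays of either slide. In these populations slide 1 held replicate 1 (and SM replicate 3) and slide 3 held replicate 2, so that the slide and the replicate cannot be told apart. The single array of slide 5, 5h BC replicate 1, stood at -3.20 against 1.10 for replicate 2.
The SE of a Hes1 difference between groups of 2 arrays was 2.02, the largest of the 10 genes, and none of its differences was called. With slide as a fixed block the difference from FLK1 to HE1 was -2.49 ± 0.81 (adjusted p = 0.0724), against -4.09 ± 2.02 (adjusted p = 0.187) without it. Of the other genes Notch1 was lower and Notch3 higher on slide 3 in all 7 groups, by 1.23 and 0.67 on average, differences that 12.9% and 44.1% of genes matched or passed.

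**Figure D3:**
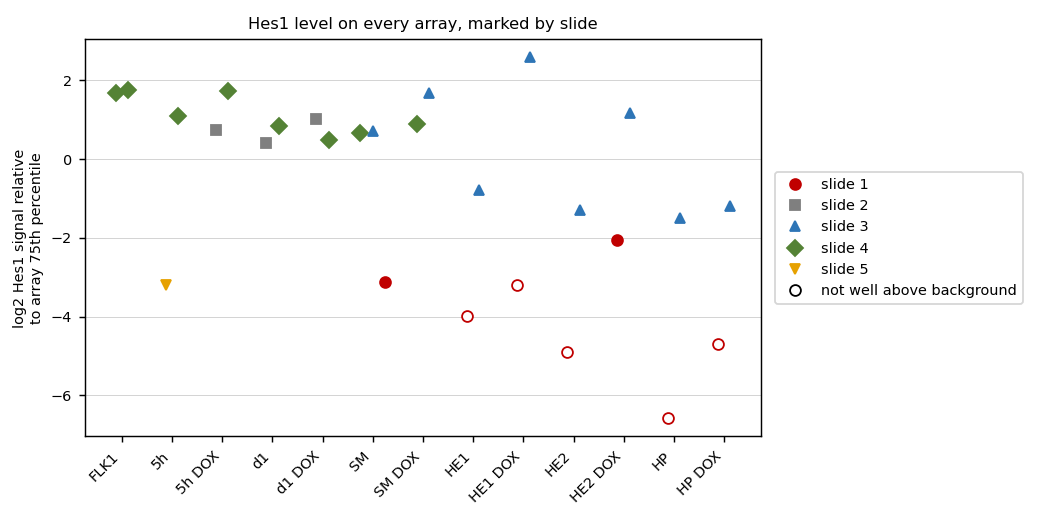
Hes1 level (log2 signal relative to the array's 75th percentile, y axis) on every array of the 13 groups (x axis), with colour and shape giving the slide; open symbols were not well above background. The slide 1 arrays lie at -2.06 or below, and the slide 2, 3 and 4 arrays at -1.49 or above.

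The next question was what dnFOS induction changed in each population. None of the 10 genes was called in any of the 6 comparisons with untreated cells (limma, 54 tests), and 3 tests had an unadjusted p under 0.05. Over all genes the share called was 0.00421% for 5h BC, 0.0084% for SM, 0.0398% for HP and 0% for d1 BC, HE1 and HE2, so that few genes of any kind passed. The 3 tests were 1 of 10 in d1 BC, where 1.44% of all genes reached that p, 1 of 10 in HE2 (8.91%) and 1 of 7 in HP (3.5%). No gene of the 10 reached it in 5h BC (4.98% of all genes), SM (2.58%) or HE1 (1.14%). The spread of 2 or 3 arrays a group leaves wide intervals: for Notch4 in HE1, with levels of 3.60 and 2.98 with DOX against 3.46 and 3.34, the difference was -0.11 (95% interval -1.67 to 1.45). A change of more than 2-fold in either direction lies within that interval.

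Jag1 in HP had the lowest p of these tests. Its levels were 1.34 and 1.50 without DOX and -0.52 and -1.07 with DOX. The groups did not overlap, and 38.1% of all genes tested did not overlap between these groups either. The difference was -2.22 ± 0.56 on the log2 scale (95% interval -3.39 to -1.05, unadjusted p = 0.000846, adjusted p = 0.317), which is not a call. It was -1.86 within slide 1 and -2.57 within slide 3. With slide as a random block it was called (adjusted p = 0.0465), as it was on the authors' processed values (-2.10, adjusted p = 0.0304) and after normexp background correction (-1.90, adjusted p = 0.0178). The adjusted p was 0.109 with slide as a fixed block, and over all alternatives tried it lay between 0.0178 and 1.
The untreated HP arrays of this comparison are those on which Jag1 rose from HE1 to HP, so that both results rest on the same 2 arrays. With DOX the HP levels stood near those of untreated HE1, the replicate 1 array just above them and the replicate 2 array below. Summed endothelial markers were 47.6 and 57.3 in HP and 63.0 and 75.3 in HP with DOX, and summed blood markers were 125 to 153 and 158 to 233. Their part in the Jag1 difference was not tested. In the other 5 populations the Jag1 difference lay between -0.47 (HE2) and 0.50 (HE1), none with an unadjusted p under 0.05. The DOX effect in HP minus that in HE2 was -1.75 (95% interval -3.40 to -0.10, unadjusted p = 0.0392, adjusted p = 0.920), and a test of equal effects in all 6 populations gave an unadjusted p of 0.0282 and an adjusted p of 1.

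In HE2 the arrays of Notch3, Dll1, Jag2, Hey1 and Hey2 with DOX lay above the untreated ones without overlap and those of Jag1 below, 6 of 10 genes against 34.7% of all genes tested. Elsewhere 2 genes stood apart in each population, of 7 to 10 tested, against 10.6% of all genes in SM, 17.1% in HE1, 28.3% in d1 BC, 35.1% in 5h BC and 38.1% in HP. Jag2 had levels of -0.27 and -1.31 with DOX against -2.56 and -1.65, a difference of 1.31 (95% interval 0.30 to 2.33, unadjusted p = 0.0143, adjusted p = 0.540). It was 2.29 within slide 1 and 0.34 within slide 3, so that most of it came from slide 1. Notch3 had 0.92 and 1.73 against 0.07 and 0.09, a difference of 1.24 (95% interval -0.20 to 2.68, adjusted p = 0.540). Hey1 had 1.57 and 2.33 against -0.33 and 0.83, a difference of 1.70 (95% interval -0.08 to 3.48, adjusted p = 0.540). The untreated HE2 array of slide 1 was the dimmest of the series, with a 75th percentile of 73.2 against 262.6 for its DOX partner. Summed endothelial markers were 83.0 and 110 in HE2 and 122 and 154 in HE2 with DOX, and summed blood markers were 90.3 and 96.9 and 102 and 162, neither with overlap. The part of signal and of these cells in the HE2 differences was not tested. The median difference of the 10 genes in HE2 was 1.28 against 0.17 over all genes tested, and that of the 50 further pathway genes described below was 0.69. In the other 5 populations the median of the 10 genes, where tested, was -0.27 for 5h BC and -0.24 for HP, against -0.03 and 0.25 over all genes. It was 0.53 for SM, 0.50 for HE1 and 0.15 for d1 BC, against 0.09, 0.09 and 0.13.

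Dll1 in d1 BC was the remaining gene with an unadjusted p under 0.05. Its levels were -1.92 and -4.90 with DOX and -4.48 and -6.27 without, the last not well above background. The groups overlapped, and the difference was 1.96 (95% interval 0.01 to 3.92, unadjusted p = 0.0488, adjusted p = 1). It was 2.56 within slide 2 and 1.37 within slide 4, the slide of that dim array. Summed endothelial markers were 13.3 to 21.3 in d1 BC and 23.3 to 26.5 with DOX. The matrix genes listed for feeders summed to 32.9 to 40.3 and 12.5 to 15.7. Their part in the Dll1 difference was not tested.

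Pairs of DOX and untreated arrays on the same slide, 11 in all, gave a view of the DOX effect that slides do not enter. Hes1 was higher with DOX in 10 of the 11 pairs, by a median of 0.77 on the log2 scale and by as much as 3.36 in HE1 on slide 3, where its level was 2.58 with DOX and -0.77 without. The untreated array of that pair was dim, with a 75th percentile of 128.5 against 335.2 for its DOX partner. Dll1, Notch3 and Hey2 were also higher in 10 of 11 pairs, with medians of 0.95, 0.52 and 0.90, and Hey1 in 9. As many pairs or more were higher for 5.64% of the genes tested for DOX, against these 4 of the 10. Some of these pairs had neither array well above background. Without them Hes1 was higher in 8 of 9 pairs (median 0.62), Dll1 in 9 of 10, Hey2 in 9 of 9 and Notch3 still in 10 of 11. Notch4 was higher in 3 of 11 pairs, Jag1 and Jag2 in 5 and Notch1 and Dll4 in 6. These are counts with no test, and the pairs share no arrays. Summed endothelial markers were also higher with DOX in most of these pairs, but not in SM on slide 4 (10.8 against 15.7) or HE1 on slide 3 (184 in both). Their part in these counts was not tested. With slide as a fixed block Hes1 in HE2 was higher with DOX by 2.65 ± 0.59 (adjusted p = 0.0977) and not called. In HE1 the difference was 2.06 ± 0.59, but Hes1 was not well above background on both arrays of either HE1 group and was not tested there.

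**Figure D4:**
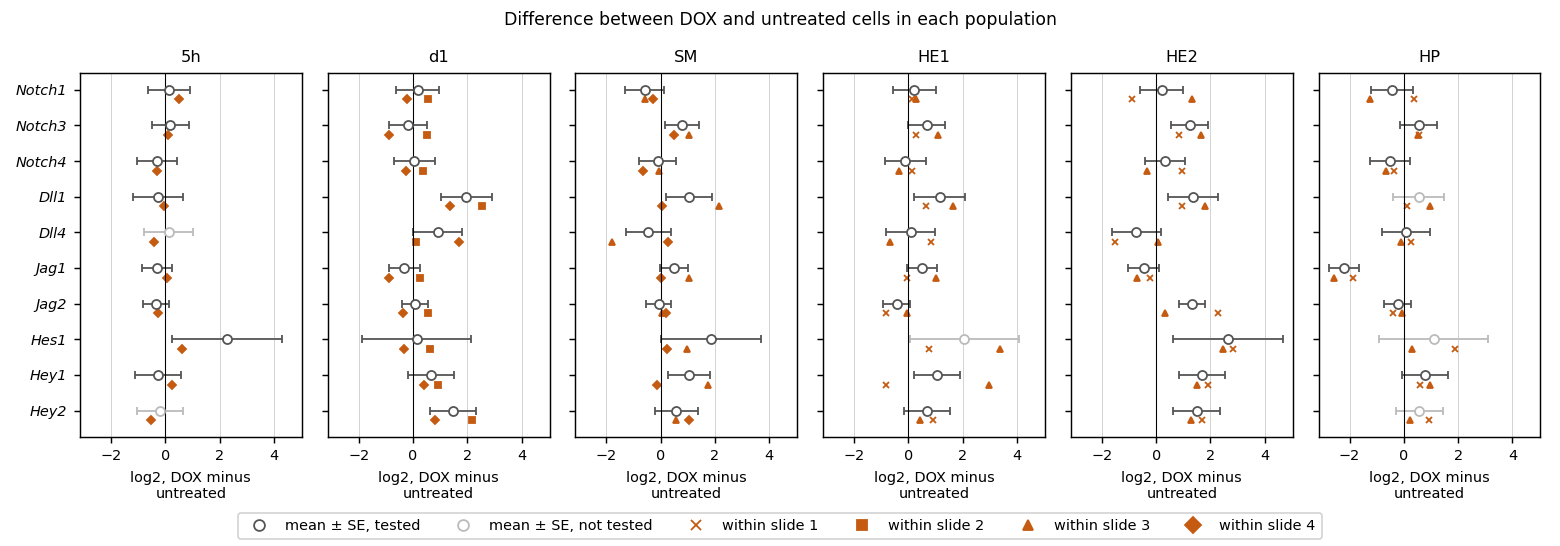
DOX minus untreated log2 difference (x axis) of each gene (y axis) in the 6 populations: circles are means ± SE over the arrays, grey where not tested, and orange marks are the differences within single slides. Jag1 in HP is the only circle further than 2 below 0, and Hes1 has the widest errors.

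Whether a DOX effect differed between neighbouring populations was tested for SM and HE1, HE1 and HE2, and HE2 and HP. No gene of the 10 was called among these 30 tests (limma, 0% of all genes in each), and 3 had an unadjusted p under 0.05, against 0.473%, 1.19% and 3.86% of all genes. Beside Jag1 these were both Jag2, with an HE2 effect above that in HE1 by 1.75 (unadjusted p = 0.0200, adjusted p = 1) and an HP effect below that in HE2 by 1.55 (unadjusted p = 0.0364, adjusted p = 0.920).

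The wider pathway was followed through 50 further genes, of which 15 were called in at least 1 untreated comparison, against 14.6% of all genes, and none in a DOX comparison. From FLK1 to HE1 7 of 48 genes tested were called higher, against 6.84% of all genes, and 3 lower, against 4.75%. From HE1 to HE2 2 of 48 were called higher, against 0.529%, and 5 lower, against 1.8%. Their median difference was 0.16 from FLK1 to HE1 against 0.08 over all genes, and -0.27 from HE1 to HE2 against 0.04. HE1 shared no slide with FLK1 or d1 BC, so that differences between them also include those between slides. The calls of these 50 genes were not followed under the alternatives in processing.

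Sugar-modifying enzymes tune which ligands activate a receptor. Mfng, one of the Fringe enzymes, had levels of -2.65 and -2.41 in d1 BC, 2.96 and 1.65 in HE1 and 4.95 and 5.27 in HE2. It rose by 4.83 ± 0.70 from d1 BC to HE1 (adjusted p = 0.0011) and by a further 2.81 ± 0.70 from HE1 to HE2 (adjusted p = 0.0374). Its relative Lfng fell by 2.51 on the log2 scale from FLK1 to HE1 (SE 0.67, adjusted p = 0.0202).
Among ligand-like genes Dll3, which is known to act inside the cell against Notch, fell by 5.50 on the log2 scale from FLK1 to HE1 (SE 0.87, adjusted p = 0.000472). Dner was not well above background on either HE1 array and was at least 3.61-fold lower there than in FLK1 (adjusted p = 0.00794). Of the cleavage and nuclear machinery Psen2, a catalytic subunit of γ-secretase, was higher in HE1 than FLK1 by 2.62 ± 0.61 (adjusted p = 0.00932) and the coactivator Maml2 by 2.32 ± 0.72 (adjusted p = 0.0435). The coactivator Kat2b was at least 5.65-fold higher (adjusted p = 0.0174), since it was not well above background in FLK1. Dner and Kat2b, and Dtx1 in the HP comparisons below, passed the filter only through the group where they were high.

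The Deltex ubiquitin ligases Dtx1 and Dtx4 moved in opposite directions from HE1 to HP. Dtx1 had levels of -3.37 and -2.30 in HE1 and was not well above background on either HP array, at least 4.72-fold lower (adjusted p = 0.000898). Dtx4 had levels of -0.73 and -0.65 in HE1 and 2.49 and 3.33 in HP, a rise of 3.60 ± 0.52 (adjusted p = 0.000355). In HP with DOX Dtx1 had levels of -3.78 and -4.21, at least 2.11-fold above the untreated arrays (adjusted p = 0.292), and Dtx4 differed by -1.77 (adjusted p = 0.547). The arrays did not overlap for either gene, as for 38.1% of all genes, and neither was called.

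Among 6 genes tied to arterial endothelium, several of them known to respond to Notch, 2 were called higher from d1 BC to HE1, against 1.83% of all genes, 3 lower from HE1 to HE2, against 1.8%, and 2 lower from HE1 to HP, against 2.53%. The gap junction genes Gja4 and Gja5 rose from d1 BC to HE1 by 5.07 ± 1.23 (adjusted p = 0.0295) and 5.57 ± 1.04 (adjusted p = 0.0061). Efnb2, the arterial ephrin, fell by 4.35 on the log2 scale from HE1 to HP (SE 0.66, adjusted p = 0.000572), and the netrin receptor Unc5b fell by 3.55 (SE 0.96, adjusted p = 0.0406). Unc5b had a mean level of 6.12 in d1 BC, above the 4.61 in HE1. Of the venous genes Nr2f2, which is known to hold Notch down in veins, rose by 2.50 ± 0.60 from d1 BC to HE1 (adjusted p = 0.0281) and fell by 2.50 on the log2 scale from HE1 to HP (SE 0.60, adjusted p = 0.0195). Nrp2 fell by 2.33 over the latter step (SE 0.53, adjusted p = 0.0135). Summed endothelial markers were 101 to 184 in HE1, 83.0 to 110 in HE2 and 47.6 to 57.3 in HP, and their part in these differences was not tested.

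**Figure D5:**
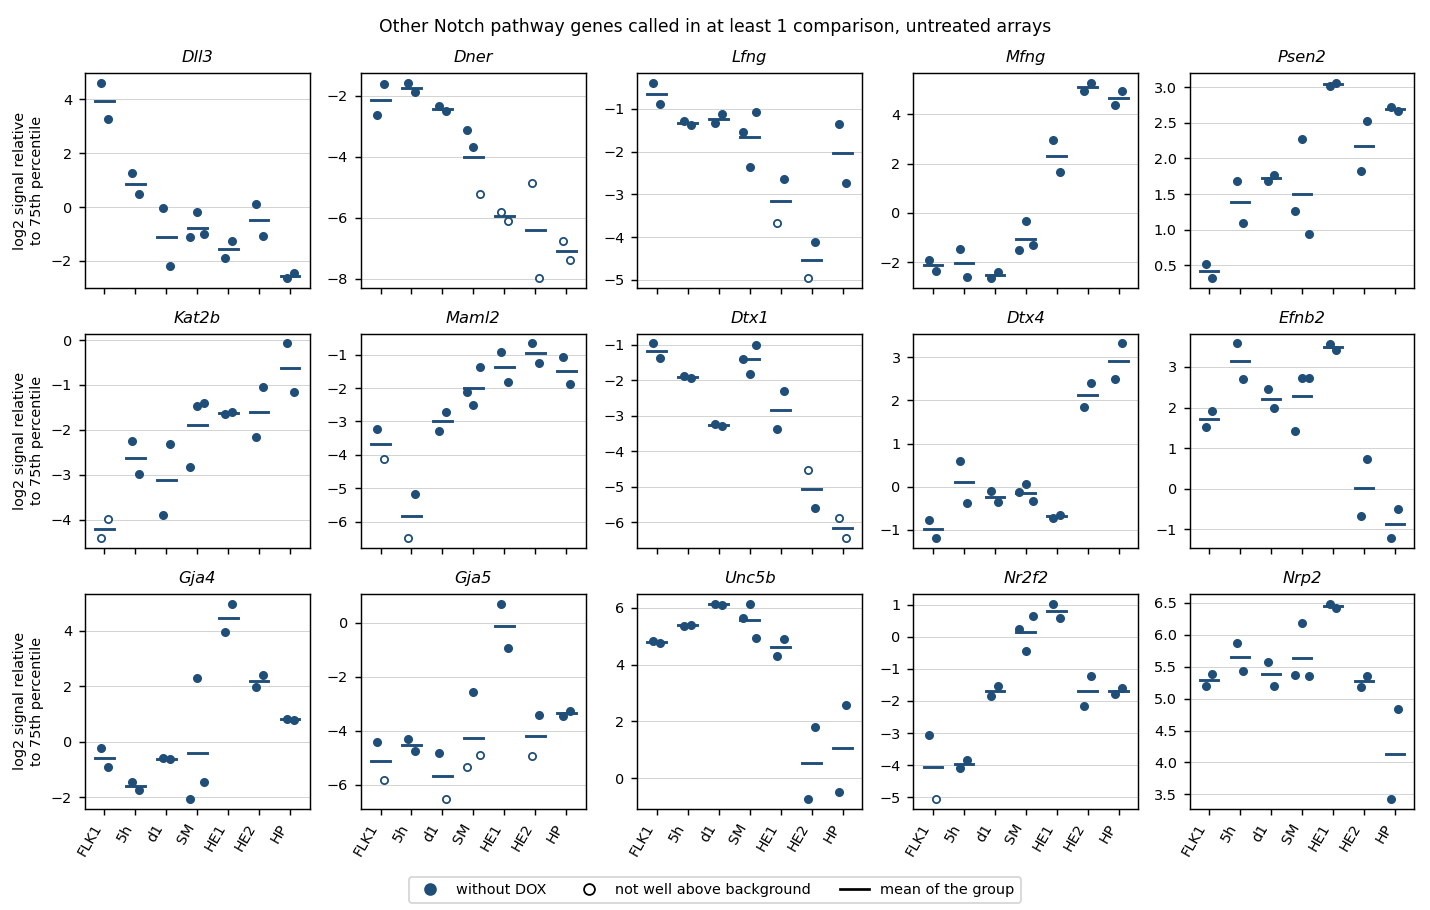
Level (log2 signal relative to the array's 75th percentile, y axis) of the 15 further pathway genes that were called in at least 1 comparison, on every array of the 7 untreated populations (x axis); open circles were not well above background and bars are group means. Gja4, Gja5, Efnb2 and Nr2f2 are highest in HE1, while Mfng and Dtx4 are higher in HE2 and HP than in HE1.

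Genes with patterns most like those of the 10 were sought among 16368 genes by the Pearson r of the 13 group means, which share arrays, slides and scaling. Notch4 was most like Adcy4 (r = 0.95), Clec1a (0.94) and Fgd6 (0.93). Hey2 was most like Klhl13 (0.97), Shroom2 (0.94) and Cxxc4 (0.93), and Dll1 like Grin2c (0.98), Ddx25 (0.97) and Socs2 (0.95). Notch3 was most like Arhgef25 (0.97), Tro (0.96) and Sulf1 (0.96), and Notch1 like Adgre5, Pigr and Klf3 (0.93 each). Dll4 was most like Acer2 (0.95), Calcrl (0.94) and Strn (0.93), and Jag2 like Dclk2 (0.93), Klf10 (0.93) and Als2cl (0.90). Hey1 was most like Herc3 (0.92), Slc22a18 (0.92) and Tsc22d3 (0.90). Hes1 was most like Zfp930 (0.95), Zswim1 (0.95) and Gm10778 (0.93), over group means that hold the slide difference described above. The genes most like Jag1 were further from it, Napsa and Tor3a at 0.81 and Vegfb at 0.78.

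In the order of their 13 group means most neighbours overlapped. For Notch4 the array ranges of 9 of the 12 neighbouring pairs overlapped, and HE1 with and without DOX stood apart from HE2 with DOX, the next group. For Jag1, Hes1, Hey1 and Hey2 11 of 12 neighbouring pairs overlapped, and for Jag1 the pair that did not was HP and FLK1, the next highest. For Notch3 HE2 was apart from HP, the group above it, and for Notch1 FLK1 was apart from d1 BC.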

How the data were processed

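RNA of 13 groups of mouse ESC-derived cells, extracted with TRIzol, was labelled with Cy3 and hybridised to 27 one-colour Agilent mouse arrays. The deposited scanner files hold spot intensity as the authors' run of Agilent Feature Extraction (10.7.1.1 in the submitters' processing notes) gave it, background-subtracted but not scaled between arrays. The authors also deposited a table of log2 values for the same arrays, normalized between arrays, used here as an alternative only. Its columns had medians of 5.98 to 6 and correlated with the scanner values of their own arrays at 0.984 or more, and its background correction is not given in the sources used here. No files held comparisons.

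Levels were log2 of the processed intensity minus the 75th percentile of each array, with control spots left out and 1 probe per gene, that of the highest mean (55681 probes, 37208 genes). Dim signals are the least exact, and the number of arrays limits precision, since an array has no read depth. limma 3.58.1 in R 4.3.3 (lmFit and eBayes, 14 residual degrees of freedom) was fitted to all 13 groups, with p-values adjusted by Benjamini-Hochberg over all genes tested in a comparison. Genes entered a comparison where at least 1 of its groups had the probe well above background on every array. A difference between DOX effects needed the adjusted p alone, with no fold. Where a gene was not well above background on any array of a group, the fold is a bound, from the mean of the bright group against the dim group at, per array, the lowest signal well above background or the probe's own, whichever was higher. The adjusted p beside a bound comes from the limma fit to the dim readings as measured, and is not a test of the bound. Slide and scan day come from the file headers. Slides 1 and 3 held the replicates of SM, HE1, HE2 and HP apart from SM replicate 1 of each treatment, slides 2, 4 and 5 those of FLK1, 5h and d1 BC, and slide 4 SM replicate 1 as well.

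The fit was tested on simulated data: of 40 genes changed by a log2 value of 4 from d1 BC to HE1, 19 were called, and 1 of 36514 unchanged genes was. For the DOX effect in HP 18 of 40 were called, and 2 of 36514 unchanged genes. At a log2 change of 2 these were 0 and 2 of 40. The simulated arrays held no slide effect, dim probes were not filtered, and unchanged genes had the same mean in all groups. The shares called there therefore do not give the share of real changes that the reported tests would call. Alternatives were quantile and median scaling, normexp background correction (offset 50, then quantile), the authors' values, other filters on dim probes, the mean of a gene's probes, slide or replicate as a block, fits of the compared groups alone and leaving out each array.

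The 10 genes and all gene lists were chosen with earlier results of these data known. Named were the 10 genes, marker genes, those of 52 further pathway genes that were called, and for each of the 10 the 3 genes with the most similar group means. Of the 52, 50 are reported here.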

Additional observations from a re-analysis of the deposited data

Results flagged for a closer look

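Jag2 differed in direction between populations with DOX. Its DOX minus untreated difference was -0.34 on the log2 scale in 5h BC, where the 2 arrays with DOX had lower levels than the 2 without, and 1.31 in HE2, where both lay above. The difference between these effects was not tested. Neither effect was called, and the HE2 value was 2.29 within slide 1 and 0.34 within slide 3. In HE1, too, both DOX arrays lay below, by 0.44 on average, and for HE1 and HE2 the difference between the effects was tested and not called (1.75, adjusted p = 1).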

How the results depend on the processing

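The number of calls in untreated comparisons, 13, became 7 with no filter on dim probes, 7 where a probe had to be well above background in both groups, 20 with slide as a random block and 5 in fits of the compared groups only, and was 12 or 13 under the other 7 alternatives. The calls were not the same ones: of the 13, 7 remained under normexp correction, 8 under median scaling, on the authors' values and with slide as a fixed block, 9 under quantile normalization and 12 with the mean of all probes. With the fixed block Jag2 from 5h to d1 BC and into HE1 from d1 BC, and Notch1 and Notch4 from FLK1 (Notch4 also from d1 BC) to HE1, were lost, and Dll1 and Notch3 from FLK1 to HE1 and from HE1 to HE2 were gained. Leaving out single arrays gave 3 to 15 calls, the lowest without HE1 replicate 1. The DOX calls went from 0 to 1, Jag1 in HP, after normexp background correction (1), on the authors' values (1) and with slide as a random block (1), and leaving out arrays gave 0. Differences between DOX effects gave 0 calls in every setting. Over 19 differences followed through 717 alternative values, 593 kept their side of the threshold, 121 lost the call, 3 gained it and none (0) changed sign. With the replicate number as a block (replicate block) there were 12 untreated calls and 0 DOX calls: Dll1 from 5h to d1 BC (adjusted p = 0.0517) and Notch4 from SM to HE1 (adjusted p = 0.0995) were lost, and Jag2 from FLK1 to HE1 was gained. The labels do not pair the numbers, and the replicate 1 minus replicate 2 deviations of treated and untreated arrays correlated at -0.15 in 5h BC and at 0.26 to 0.61 in the other populations. After normexp correction Dll1 from HE1 to HP was -0.84 against -3.53. The cause of these changes was not tested.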
